A study of Mus musculus with 6 samples.

Results

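Notch signalling and the factors that commit cells to a secretory fate were followed through 10 genes chosen by name from the deposited table: the receptors Notch1 and Notch2, the ligands Dll1, Dll4 and Jag1, the repressor Hes1, the secretory fate factors Atoh1, Neurog3 and Gfi1, and the stem cell gene Olfm4. All 10 were found among 32219 genes, and all 10 passed the filter on low values, which asked for a value above 0 in 2 or more of the 5 libraries compared and kept 23408 genes. The series profiled polyadenylated RNA of mouse intestine in 6 libraries, 3 of genotype WT and 3 of genotype KO, numbered here as in their titles, to look into defects of intestinal development. The labels do not give the gene deleted in KO, the strain, the age, any treatment or whether each library came from its own animal, so p-values measure only the spread between these libraries, which may be technical. As material the labels give primary cells of epithelium, immune system and enteric nerves, and the design text the entire duodenum. Positions are from GRCm38 (GENCODE), and all 10 genes are protein-coding.

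In the intestinal crypt, Notch receptors on a progenitor are engaged by Delta-like ligands on neighbouring cells, and the released intracellular domain joins the DNA-binding protein Rbpj to switch on Hes1. Hes1 represses Atoh1, so progenitors with active Notch become absorptive cells, while those without it keep Atoh1 and become goblet, Paneth, enteroendocrine or tuft cells. Neurog3 then sets the enteroendocrine branch, and Gfi1 favours goblet and Paneth cells over it. Olfm4 is made by crypt base stem cells and depends on Notch activity. The same receptors and ligands also serve blood vessels, smooth muscle and lymphocytes, all of which are present in such bulk RNA.

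The library KO 1 was kept apart from the others. It holds no values on chromosomes 2 to 9, X and M and on most of chromosome 19, and a 0 there was treated as missing. Notch1, Dll4 and Jag1 (chromosome 2), Notch2 (chromosome 3), Gfi1 (chromosome 5) and Atoh1 (chromosome 6) therefore have no value in KO 1. Neurog3 (chromosome 10), Olfm4 (chromosome 14), Hes1 (chromosome 16) and Dll1 (chromosome 17) have one, which was divided by 2.14 on the linear scale, the median ratio of KO 1 to the other libraries over 1925 covered genes. After that step KO 1 still stood apart: the proximal factor Gata4 was at 5.18 on the log2 scale against 0.43 to 0.63 elsewhere, lactase (Lct) at 7.04 against 1.08 to 2.01, the ileal bile acid binding protein Fabp6 at 3.90 against 8.16 to 8.76, and Hoxb9 at 0.16 against 4.10 to 4.29. Among further markers of gut region, Slc10a2 (5.98 to 6.76) and Fgf15 (5.02 to 5.84), both ileal genes, were well above 0 in the other 5 libraries, while Pdx1, a defining gene of the duodenum, was at 0.08 or less there. Gata4 and Pdx1, which mark the region the design text names, were thus near 0 in these 5 libraries. Onecut2, at 0.55 in KO 1 against 0.12 to 0.42, also lay outside the range. The comparison of genotypes was therefore made between KO 2 and KO 3 and the 3 WT libraries, and KO 1 is given beside it.

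All values are taken as log2(abundance + 1). The log base, the abundance unit and the depth are not given, so no counting error can be stated and levels are compared between libraries of 1 gene, not between genes. Epithelial (7), immune (11) and neuronal (9) marker genes were all above 0 in each of the 5 libraries. Of these 3 lists the immune markers varied most, with summed linear levels of 41.6 to 113.9 in WT and 38.4 to 153.2 in KO. The title of the series names DHX9 and GPR41 (gene Ffar3), and neither transcript was at 0 in KO 2 or KO 3. Dhx9 ranged from 5.94 to 6.01 in WT, with KO 2 at 6.17 and KO 3 at 6.08, both above WT, and it did not pass. Ffar3 ranged from 0.18 to 0.60 in WT, with KO 2 at 0.35 and KO 3 at 0.59. It was thus near 0 in every library, so a loss of its transcript could not be judged. Whether either gene was deleted cannot be told from these values.

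None of the 10 genes differed between KO and WT beyond the spread of the libraries. The WT and KO values overlapped for all 10, and over the 23408 genes tested 13.3% had groups that did not overlap. By limma, a linear model with moderated variances, 0 of 10 passed an adjusted p of 0.05, and 0 had an unadjusted p under 0.05. Over all genes 0.00427% passed and 2.41% had an unadjusted p under 0.05. With 10 genes a count of 0 is near each of these shares, that of groups not overlapping included. Of the 10 folds, 4 were above 0 and 6 below, beside 60.8% and 39.2% of all genes, and their median was -0.02 beside 0.02. The adjusted p was 0.99997 for each, with Benjamini-Hochberg adjustment over all genes. The 95% intervals of the 10 log2 folds all lay between -0.45 and 0.49. On the linear scale these bounds are 1.37-fold lower, for Dll1, and 1.40-fold higher, for Notch2. If the deposited logs are natural logs, the bounds become 1.58-fold lower and 1.62-fold higher. These are folds of abundance plus 1, so they understate what is possible for the low genes Neurog3 and Gfi1: with an added constant of 0.1 the fold of Neurog3 was 0.22 ± 0.30 (SE) and that of Gfi1 0.0053 ± 0.25. In bulk RNA, fewer cells of a type and less RNA per cell cannot be told apart.

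**Figure D1:**
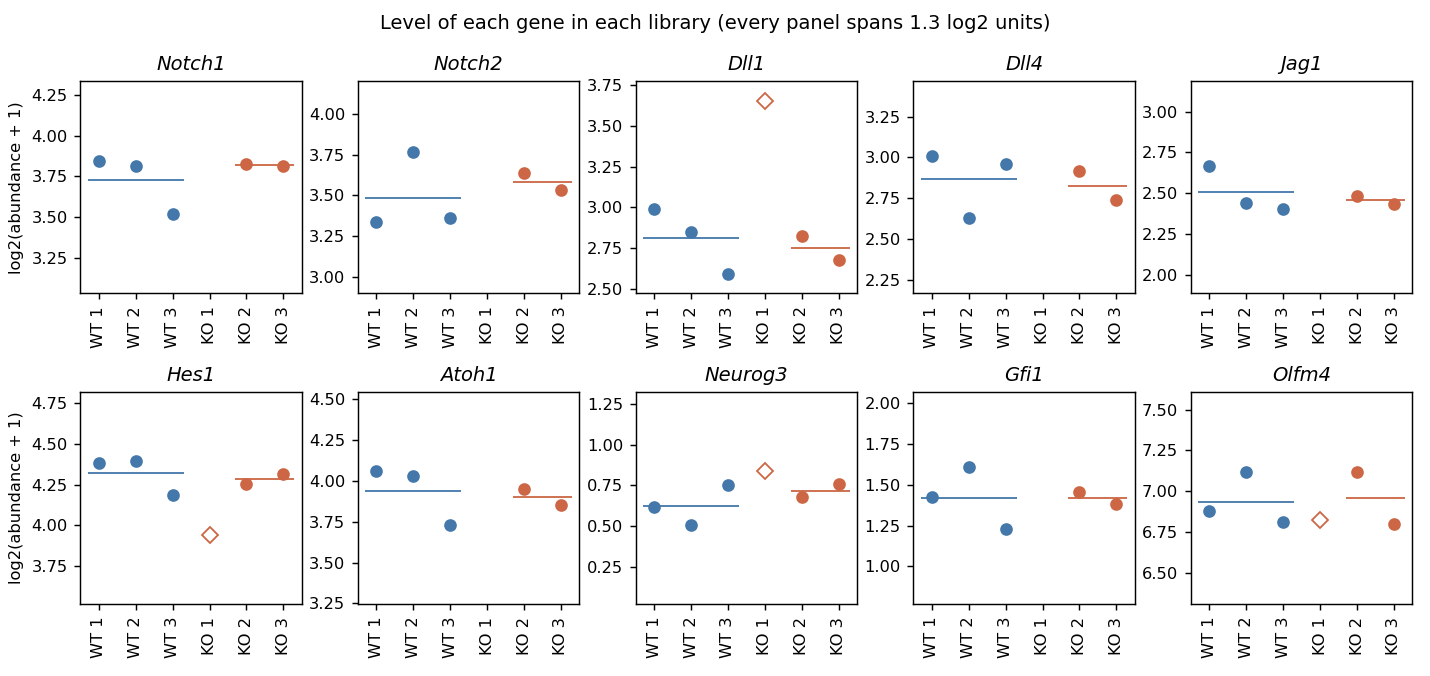
Level of each of the 10 genes as log2(abundance + 1), 1 panel per gene with its own axis, 1 point per library (blue WT, orange KO, lines at the group means, open diamond KO 1 after rescaling where it has values). In every panel the range of the KO 2 and KO 3 points overlaps that of the WT points. For Olfm4 the KO 2 point lies just above the WT range and the KO 3 point just below it. For Neurog3 the KO 3 point lies just above it. KO 1 lies well above the others for Dll1 (3.65).

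Both receptors had folds above 0 that did not pass. Notch1 (chr2:26457903-26516663, minus strand) stood at 3.85, 3.82 and 3.52 in WT 1, WT 2 and WT 3, with 3.82 in both KO 2 and KO 3. WT 3 was the low library, and the KO pair lay at the level of the other WT libraries. The fold was 0.09 ± 0.13 (SE). Notch2 (chr3:98013527-98150361, plus strand) stood at 3.34, 3.76 and 3.36 across WT 1 to WT 3 and, in KO 2 and KO 3, at 3.63 and 3.53. WT 2 was the highest and KO 2 the next, and both KO libraries lay inside the WT range. Its fold was 0.10 ± 0.16 (SE), and its unadjusted p of 0.563 compares with 0.494 for Notch1.

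The folds of all 3 ligands were below 0, and none passed. Dll1 (chr17:15367354-15376872, minus strand), the ligand of secretory precursors, stood at 2.99, 2.85 and 2.59 in the WT libraries, with 2.82 in KO 2 and 2.68 in KO 3, a fold of -0.06 ± 0.16 (SE). Both KO values lay inside the WT range. Dll4 (chr2:119325784-119335962, plus strand), which acts with Dll1 in the crypt and also in vessel sprouting, stood at 3.01, 2.63 and 2.96 across WT 1 to WT 3 and, in KO 2 and KO 3, at 2.92 and 2.74. Here WT 2 was the low library, the reverse of its place for Notch2, and the fold was -0.04 ± 0.16 (SE). Jag1 (chr2:137081456-137116644, minus strand), a ligand of the Jagged class, stood at 2.67, 2.44 and 2.41 in the WT libraries, with 2.48 in KO 2 and 2.43 in KO 3. Only WT 1 stood above the rest, and the fold was -0.05 ± 0.14 (SE).

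Hes1 (chr16:30064384-30067796, plus strand), the transcriptional readout of Notch in the crypt, had the smallest range of the 10 genes over the 5 libraries, at 0.21. It stood at 4.38, 4.39 and 4.18 across WT 1 to WT 3 and, in KO 2 and KO 3, at 4.26 and 4.31. The KO values fell between the lowest and highest WT libraries, the fold was -0.03 ± 0.10 (SE), and its 95% interval ran from -0.28 to 0.21. The median range over the 10 genes was 0.33, beside 0.30 over all genes tested.

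**Figure D2:**
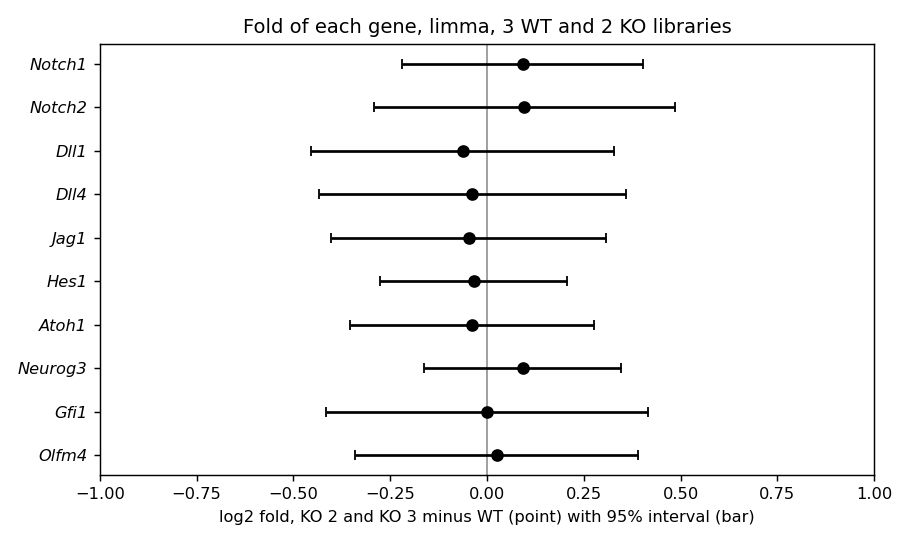
Log2 fold of each gene between KO 2 and KO 3 and the 3 WT libraries (points) with its 95% interval from limma (bars). Every interval includes 0, and the widest reach is -0.45 for Dll1 and 0.49 for Notch2.

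Among the secretory fate factors, Atoh1 (chr6:64729125-64731245, plus strand), the gate to all secretory lineages, stood at 4.06, 4.03 and 3.73 in the WT libraries, with 3.95 in KO 2 and 3.85 in KO 3. The KO libraries again lay within the WT range, with a fold of -0.04 ± 0.13 (SE). The log2 difference of Atoh1 and Hes1 inside a library, which does not depend on how the library was scaled apart from the added constant, was -0.32, -0.36 and -0.45 in WT and -0.31 and -0.46 in KO. The span of this difference in the KO pair was close to that in WT, with group means of -0.379 in WT and -0.383 in KO. Gfi1 (chr5:107716657-107726036, minus strand) stood at 1.42, 1.61 and 1.23 across WT 1 to WT 3 and, in KO 2 and KO 3, at 1.46 and 1.38. The group means of Gfi1 were 1.42 in both, the interval of the fold ran from -0.42 to 0.42, and the unadjusted p was 0.998.

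Neurog3 (chr10:62133090-62134763, plus strand), made only briefly by enteroendocrine precursors, was low in every library, at 0.62, 0.51 and 0.75 in the WT libraries, with 0.68 in KO 2 and 0.76 in KO 3. KO 3 was the highest and WT 3 nearly equal to it. The fold of 0.09 ± 0.10 (SE) had the smallest unadjusted p of the 10 genes, 0.408, and at this level the added constant of 1 compresses any fold.

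Olfm4 (chr14:79984081-80023139, plus strand) stood at 6.88, 7.12 and 6.81 across WT 1 to WT 3 and, in KO 2 and KO 3, at 7.12 and 6.80. The KO libraries took the highest and the lowest place of the 5, so the genotypes spanned the same levels, with a fold of 0.02 ± 0.15 (SE). Among the 9 members with a promoter window, Olfm4 was the sole one with a core Rbpj sequence (TGGGAA, read on both strands) in the 250 bases before its RefSeq start. For that reason this promoter is shown. It covers chr14:80000052-80000301 of GRCm38.p6 on the plus strand, from RefSeq, with the motif in capitals. The RefSeq start lies inside the longer span that GENCODE gives the gene. The motif occupies bases 12 to 7 upstream of the start.
Olfm4: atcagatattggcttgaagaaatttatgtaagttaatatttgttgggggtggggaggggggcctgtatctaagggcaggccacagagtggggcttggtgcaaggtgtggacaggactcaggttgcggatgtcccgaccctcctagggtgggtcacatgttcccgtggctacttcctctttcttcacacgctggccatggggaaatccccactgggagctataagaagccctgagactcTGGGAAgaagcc
The table of promoters held 11 windows for 9 of the 10 genes, all but Hes1. The TGGGAA core occurred in 1 of those 9 genes and in 21.6% of 32851 promoter windows. The E-box CANNTG, bound by factors such as Atoh1 and Neurog3, occurred in 5 of the 9 (Jag1, Gfi1, Neurog3, Olfm4 and Dll1) and in 66.2% of all windows. The N-box CACNAG, bound by Hes proteins, occurred in 3 (Notch1, Notch2 and Dll4) and in 36.7%, so each motif is a common one and a match here is a description of the sequence only.

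Single libraries stood high or low across many of the 10 genes. WT 3 was the lowest of the 5 libraries for 6 of the 10 genes (Notch1, Dll1, Jag1, Hes1, Atoh1 and Gfi1), and it was the lowest for 28.4% of the 20941 genes tested without ties. WT 1 was the highest for 5 of the 10, beside 14.1% of those genes. The median distance of the 10 genes from the WT mean was 0.09 in WT 1, 0.08 in WT 2, -0.13 in WT 3, 0.05 in KO 2 and -0.06 in KO 3. Beside these values, the 8 endothelial markers had a median of -0.28 in WT 3 and 0.30 in WT 2, and the 12 stem and progenitor markers had -0.09 and 0.08. In WT 1, KO 2 and KO 3 the endothelial medians were -0.02, -0.06 and -0.10. Those of the stem and progenitor markers were -0.05, 0.09 and 0.02. Neither list shared the high place of WT 1. The summed linear level of the endothelial markers was 41.5 to 69.1 in WT and 48.6 to 54.2 in KO, with none at 0. The part of endothelial RNA in the spread of the 10 genes was not tested.

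Lymphocyte marker RNA also differed between libraries. The 3 B cell markers Cd79a, Cd79b and Ms4a1 had a mean level of 3.04 in WT 2 and 3.94 in KO 2, against 0.78 in WT 1, 0.59 in WT 3 and 1.31 in KO 3. Their summed linear level was 1.59 to 21.96 in WT and 4.45 to 43.5 in KO, with none at 0. Notch2, Olfm4 and Gfi1 were highest in the same 2 libraries. So was Dtx1, a ubiquitin ligase gene of the Notch pathway also active in lymphocytes, at 2.59 in WT 2 and 2.50 in KO 2 against 1.63 to 1.72 in the other 3. The part of B cell RNA in these levels was not tested, and the fit with it as a covariate was read only for the genotype folds. Hes1 did not share this order. With the B cell level as a covariate, the folds were -0.03 ± 0.13 (SE) for Notch2, -0.11 ± 0.09 for Olfm4 and -0.09 ± 0.17 for Gfi1, none of which passed.

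**Figure D3:**
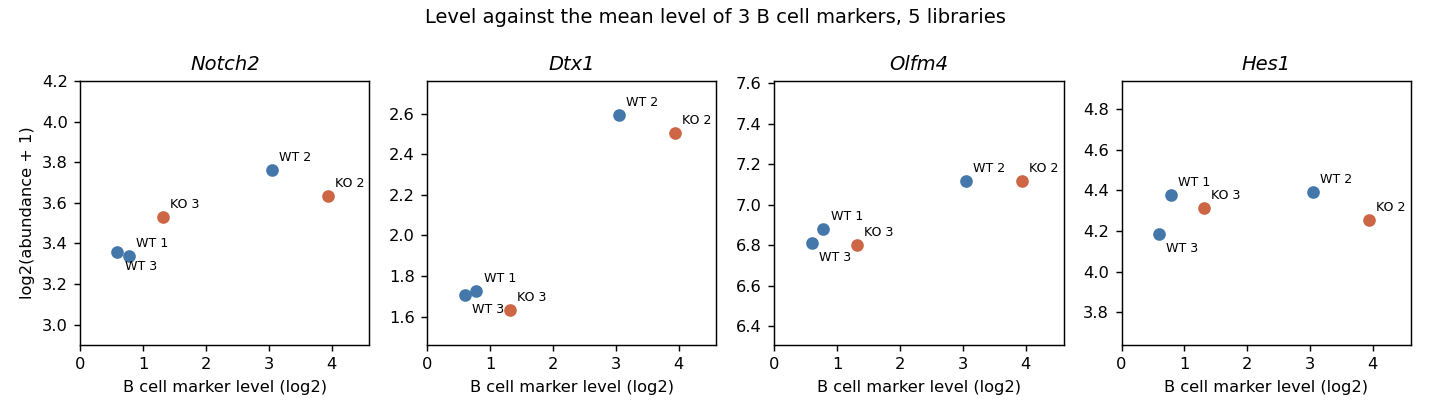
Level of Notch2, Dtx1, Olfm4 and Hes1 as log2(abundance + 1) against the mean level of 3 B cell markers in the same library (blue WT, orange KO), with every panel spanning the same height. WT 2 and KO 2, the libraries with the most B cell RNA, are the 2 highest for Notch2, Dtx1 and Olfm4, and not for Hes1.

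Where KO 1 has values, the 4 covered genes did not all lie to one side of the other libraries. Dll1 stood at 3.65 after rescaling (4.69 as deposited), above the 2.59 to 2.99 of the other 5 libraries. The difference of Dll1 and Hes1 inside the library was -0.30 in KO 1 as deposited and -1.64 to -1.39 in the others, so Dll1 stood out also against another gene of the same library. Hes1 was below the other libraries, at 3.94 (4.99 as deposited) against 4.18 to 4.39. Neurog3, at 0.84 (1.43 as deposited), was just above their 0.51 to 0.76, and Olfm4, at 6.83 (7.92 as deposited), fell inside their 6.80 to 7.12. Over 10530 covered genes, KO 1 was above all 5 other libraries for 17.1% and below all of them for 38.2%. With KO 1 added in this form, limma gave folds of 0.24 ± 0.27 (SE) for Dll1, -0.15 ± 0.12 for Hes1, 0.13 ± 0.09 for Neurog3 and -0.02 ± 0.13 for Olfm4, and none passed. KO 1 also had 3 of 4 covered enterocyte and 4 of 6 epithelium markers above the other libraries, and 5 of 7 stem and progenitor markers below them. All 5 covered smooth muscle and fibroblast markers were below too, at a median of -2.29 from the mean of the others. So were 3 of 3 Paneth, 3 of 3 glia and 2 of 2 endothelial markers. Inside KO 1 alone, genotype and these features cannot be told apart. KO 2 and KO 3, of the same genotype, did not share its Dll1 level, at 2.82 and 2.68. What sets KO 1 apart from them was not tested.

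Other genes of the pathway were listed by role, 83 in all, of which 82 were tested. None passed by limma over all genes, and 1 had an unadjusted p under 0.05. Of the 82, 63 had a fold above 0 and 19 below, with a median of 0.06. Over all genes tested 60.8% had a fold above 0 and the median was 0.02. With each library centred on its median, the split became 46 to 36 and that of all genes 41.4% above 0. KO lay above all WT libraries for 14 of the 82 and below them for 1, beside 9.76% and 3.55% of all genes.

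Of 6 other receptors and ligands, 5 had folds above 0 (median 0.08). This median was 0.0044 without KO 3, 0.13 without KO 2, 0.0284 under a stricter filter and 0.26 with an added constant of 0.1. Jag2, a further Jagged ligand, stood at 1.59, 1.67 and 1.61 in the WT libraries, with 1.70 in KO 2 and 1.87 in KO 3, with a fold of 0.16 ± 0.15 (SE). Its groups did not overlap, with KO 2 just above WT 2, but KO 1 was at 1.498 after rescaling, below all the others. The fold of Dll3, a ligand that acts on receptors of its own cell, was 0.11, that of Dlk1 0.11 and that of Dlk2 0.06, with every library of these 3 genes at 0.29 or less. Notch3, the receptor of vascular smooth muscle, had a fold of -0.03 ± 0.22, and Notch4, an endothelial receptor, one of 0.03 ± 0.15.

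Of 25 genes for cutting the receptor, adding sugars to it or taking up the ligand, 17 had folds above 0 (median 0.04, from 0.0093 without KO 3 to 0.0569 without KO 2). Pofut1, which adds fucose to Notch, had a fold of 0.13 ± 0.09 (SE), and its groups touched without overlapping (3.98 in both WT 2 and KO 2). Psen2, a catalytic subunit of gamma-secretase (0.23), and the fringe glycosyltransferase Mfng (0.28) had larger folds, with KO 2 the highest library at 3.45 and 2.02, while KO 3 lay within the WT range for both and KO 1, at 2.60 and 0.75 after rescaling, below it. Of 14 genes of the transcription complex, 12 had folds above 0 (median 0.05, but 0.0047 with median centring and 0.11 without WT 2). Tle1, a co-repressor used by Hes proteins, stood at 3.94, 4.02 and 4.06 in the WT libraries, with 4.19 in KO 2 and 4.14 in KO 3 (0.15 ± 0.08). Rbpj itself was at 4.15, 4.27 and 4.01 across WT 1 to WT 3 and, in KO 2 and KO 3, at 4.15 and 4.10, a fold of -0.02 ± 0.10 (SE). Hdac1 (0.27), Maml1 (0.15) and Snw1 (0.12) completed the genes of smallest p there.

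Of 12 further target genes, 11 were tested and 10 had folds above 0 (median 0.06, but -0.0017 without WT 3 and 0.10 without WT 2). Heyl, a target in vessel walls, was the exception, at 1.66, 1.83 and 1.60 in the WT libraries, with 1.46 in KO 2 and 1.48 in KO 3, with a fold of -0.23 ± 0.15 (SE). Dpt, a fibroblast matrix gene (-0.34), Pdgfra, a fibroblast receptor (-0.21), and Cldn5, an endothelial junction gene (-0.45), were likewise below all WT libraries in both KO libraries, a place that 3.55% of all genes took. They were 1 of 8 endothelial and 2 of 10 smooth muscle and fibroblast markers, and 3 of the 8 and 3 of the 10 had folds above 0. The median of the smooth muscle and fibroblast markers against the WT mean was -0.21 in KO 2 and 0.10 in KO 3. The summed linear level of the 10 smooth muscle and fibroblast markers was 1277 to 1692 in WT and 1286 to 1724 in KO, with none at 0, and the part of these cells in the Heyl fold was not tested. Sox9 (0.19), Ascl2 (0.20) and Hes5 (0.10) had groups that overlapped, with Sox9 at 2.78 in KO 1 after rescaling, below the rest, as had Nrarp, a feedback inhibitor of Notch (0.02 ± 0.13), and Hey1 (0.02 ± 0.16).

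**Figure D4:**
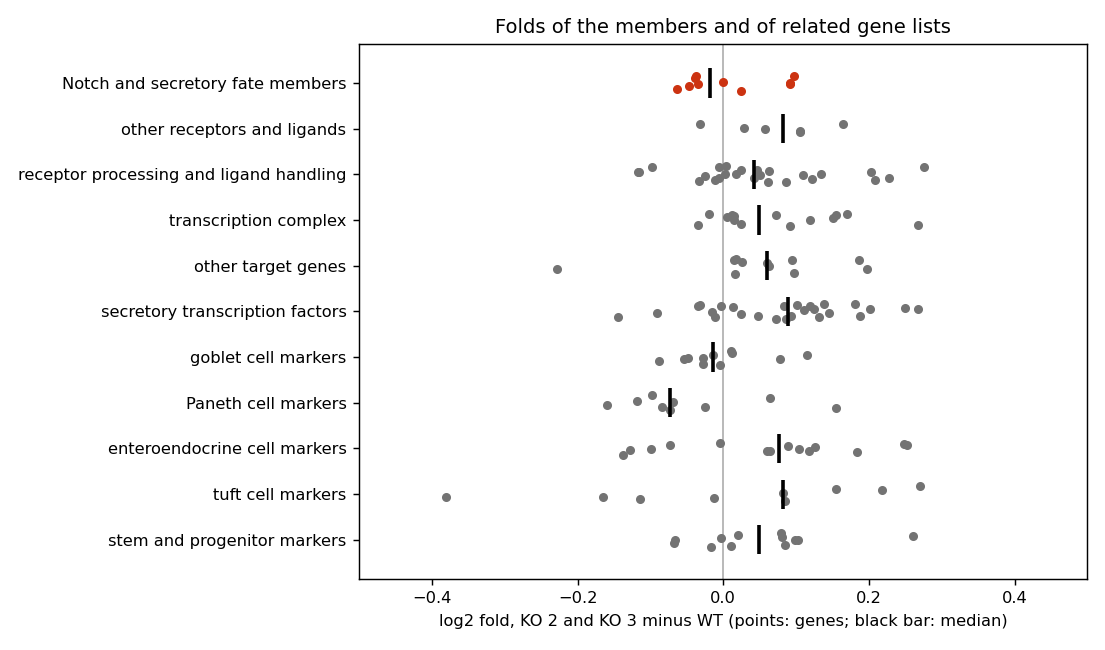
Log2 folds between KO 2 and KO 3 and WT for the 10 members (red) and for related lists of pathway genes and cell markers (grey), 1 point per gene, with a black bar at each median. The folds of the members lie between -0.06 and 0.10, and no gene of the lists passed the test.

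Downstream of Atoh1, 26 secretory transcription factors had a median fold of 0.09, with 19 above 0, beside 60.8% of all genes. The median was 0.0455 with each library centred on its median and 0.0463 without KO 2. With an added constant of 5 it was 0.0266, and with 0.1 it was 0.17. KO lay above all WT libraries for 7 of the 26 factors and below for none, beside 9.76% and 3.55% of all genes. Of the 16 in the enteroendocrine branch, 13 had folds above 0 and 5 had both KO libraries above all WT, against the same shares of all genes. Hes6, a Notch antagonist of endocrine and other precursors, stood at 3.43, 3.49 and 3.57 across WT 1 to WT 3 and, in KO 2 and KO 3, at 3.69 and 3.80. This was the pathway gene with the smallest p, with a fold of 0.25 ± 0.10 (SE, unadjusted p = 0.0430, limma adjusted p = 0.99997), but KO 1 was at 3.32 after rescaling, below all the others. Insm1, a zinc finger factor of endocrine precursors, stood at 0.92, 0.95 and 0.96 in the WT libraries, with 1.15 in KO 2 and 1.28 in KO 3 (0.27 ± 0.12). Pax4 (0 to 0.13 in WT, 0.13 in KO 2, 0.28 in KO 3) was near 0. Spdef, a goblet and Paneth factor below Atoh1, did not share this order, at 3.98, 3.79 and 4.05 across WT 1 to WT 3 and, in KO 2 and KO 3, at 3.92 and 4.05. Of the 9 goblet and Paneth factors, Spdef among them, 6 had folds above 0 and 2 had both KO libraries above all WT. Their median fold was 0.11, beside 0.09 for the 16 enteroendocrine factors. That 0.11 is the fold of Gfi1b, which was near 0 (0 to 0.16 in WT, 0.31 in KO 2, 0.06 in KO 3). The 2 medians are therefore not read as different.

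Markers of the mature secretory lineages gave no called gene. Of 11 goblet markers 4 had folds above 0 (median -0.01, but -0.11 without WT 2 and 0.0476 without WT 1), with Clca1 at -0.09, Guca2a at 0.12, Spink4 at 0.08 and Sytl2 at -0.05. Of 9 Paneth markers tested 2 did (median -0.07, but -0.20 without KO 2 and 0.09 without KO 3), with Ang4 at -0.16, Defa24 at -0.10, Defa22 at 0.15 and Lyz1 at -0.12. Of 14 enteroendocrine markers 9 did (median 0.08), with the granins Chgb at 0.25 and Chga at 0.18, Scg5 at 0.25 and Cpe at -0.14. Against the WT mean the list had a median of 0.18 in KO 3 and -0.03 in KO 2. Neuronal markers, which share granule genes with endocrine cells, had the same order, at 0.33 in KO 3 and -0.17 in KO 2, with summed linear levels of 31.96 to 39.8 in WT and 29.8 and 46.7 in KO and none at 0. Their part in the endocrine values was not tested. Of 9 tuft markers tested 5 had folds above 0 (median 0.08, but -0.06 without KO 2 and 0.17 without WT 2). Gng13 is among those 5, and under a stricter filter, which leaves it out, the median was 0.0342. Gng13 was listed at 0 in all WT libraries and, near 0, at 0.33 and 0.21 in KO. It passed the filter on low values only through the KO libraries, so a fold above 0 was fixed in advance. Its p, the smallest of any listed marker (limma, unadjusted p = 0.00109, adjusted p = 0.986), is therefore no evidence of a change. Sh2d6 was at -0.38, Alox5ap at 0.22 and Ptgs1 at 0.15.

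On the absorptive and stem cell side, 9 of 12 enterocyte markers had folds above 0 (median 0.16). Apoa4 (1.05), Fabp2 (0.39), Sis (0.27) and Alpi (0.22) were highest in KO 3, with the list at 0.43 in KO 3 and -0.11 in KO 2. Of 12 stem and progenitor markers 8 had folds above 0 (median 0.05, but 0.0071 without WT 3 and 0.0968 without WT 2). Lgr5, the crypt base stem cell receptor that accompanies Olfm4, had a fold of 0.26 ± 0.10 (SE, unadjusted p = 0.0466), whereas Olfm4 was at 0.02. The Lgr5 value of KO 1 was 2.91, below all the others. Cdca7 (0.10), Slc12a2 (0.08) and Znrf3 (0.10) were the next of this list, and none passed.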

How the data were processed

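The deposited data are a single table of log values, read here as log2 of abundance plus 1, for 6 libraries. The submitters' processing notes name mm10. Which aligner, counter, abundance unit, log base and added constant the authors used is not given in the sources used here. Libraries were made with a stranded low-input kit after polyA selection, per the labels' protocols. Every column matched 1 sample title. Of 32245 rows, 26 held a date in place of a symbol and were left out. GENCODE vM21 (GRCm38, the assembly of mm10) placed 31464 symbols, and promoters came from RefSeq (GRCm38.p6). The strand setting of the counting is not given, and 7 of the 10 genes share exon bases with another annotated gene (all but Jag1, Hes1 and Atoh1), so reads of the pairs cannot be separated with certainty.

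KO 2 and KO 3 were compared with 3 WT libraries by limma 3.58.1 (R 4.3.3) with a variance trend, 2-sided, group as the sole term, on genes with a value above 0 in 2 or more of 5 libraries. Benjamini-Hochberg adjustment ran over all 23408 genes, with a threshold of 0.05. The test was also run on simulated data with changes larger than any fold of the 10 members, so that run says nothing about folds of their size. The members, lists and this design were chosen with earlier results of these data known. Named are the 10 members, up to 4 genes of smallest p per list, the gut region genes, Dhx9 and Ffar3, and a few genes this rule picks are not reported here. Notch3, Notch4, Rbpj, Dtx1, Nrarp, Hey1 and Spdef were named after their values were seen. Alternatives covered the libraries, the replicate block, normalization, filters, added constants, variance models and the log base. A B cell covariate was added after the data were seen.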

Additional observations from a re-analysis of the deposited data

Results flagged for a closer look

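Of the members that KO 1 covers, 2 were above all 3 WT libraries there after rescaling, in a library that the comparison of genotypes did not use. Dll1 was at 3.65 in KO 1 against 2.59 to 2.99 in WT. Neurog3 was at 0.84 against 0.51 to 0.75 in WT, a smaller gap than the range of the WT values. Both were also above KO 2 and KO 3. KO 1 was above all 5 other libraries for 17.1% of 10530 covered genes and below all of them for 38.2%. It also stood apart in the markers of gut region given above, so these 2 values are not particular to the members.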

How the results depend on the processing

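None of the 10 members, of the other pathway genes or of the marker genes passed under any of the 18 alternatives. By limma the smallest adjusted p of a member was 0.727 with KO 1 as deposited. Over the fits of all 5 libraries it was 0.99975, with the replicate block. Over all genes 1 passed (Gm49380), and 0 passed with all 6 libraries in either form, the replicate block, no filter, the stricter filter, an added constant of 0.1 or the B cell covariate, with 0 to 3 over left-out libraries (3 without KO 2, 0 without any other). Of 179 member folds under alternatives, 34 turned sign, all from folds within 0.10 of 0, in 9 of the 10 members (not Neurog3). The cause was not tested. With KO 1 as deposited, where its missing values enter as 0, the folds were -1.18 for Notch1, -1.10 for Notch2, 0.58 for Dll1 and 0.20 for Hes1. With KO 1 rescaled, Dll1 was at 0.24 and Olfm4 at -0.0195. With median centring Olfm4 was at -0.0192, and with a constant of 0.1 Gfi1 was at 0.0053 and Neurog3 at 0.22. With the B cell covariate, Notch2 was at -0.0298, Dll4 at 0.0130 and Olfm4 at -0.11. With the replicate block, Dll1 was at 0.0266, Dll4 at 0.0328, Jag1 at 0.0338, Atoh1 at 0.0208, Gfi1 at 6.9e-04 and Olfm4 at -0.0029, so that 8 of the 10 folds were above 0 in place of 4, and it changed no call of a member. Deviations of same-numbered libraries correlated at 0.30 for number 2 and 0.35 for number 3. Number 1 has no KO library in this comparison, and with 2 KO libraries these values mirror each other, so the libraries are treated as sharing only a number. Over left-out libraries the folds ran from -0.0115 to 0.15 for Notch1, 0.02 to 0.23 for Notch2, -0.17 to 0.0266 for Dll1, -0.16 to 0.0525 for Dll4, -0.10 to 0.0338 for Jag1, -0.10 to 0.0026 for Hes1, -0.14 to 0.0208 for Atoh1, -0.10 to 0.0944 for Gfi1, 0.03 to 0.16 for Neurog3 and -0.13 to 0.18 for Olfm4, with the spread of a single remaining KO library taken from the other group. The natural log multiplies every log2 fold by 1.44. Depth is unknown, so counting error is not part of any interval.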
